A study of Mus musculus with 18 samples.

Results

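Oxidative phosphorylation (OXPHOS) is carried out by 5 protein complexes of the inner mitochondrial membrane. Their nuclear-encoded subunit genes were taken from a gene count table of mouse plasmacytoid dendritic cells (pDCs). Members were the protein-coding genes with symbols beginning Nduf (assembly factors named Ndufaf left out), Sdha to Sdhd, Uqcr, Cox4i, Cox5 to Cox8 and Atp5, without Cox6a2, the Sdhaf genes and symbols marked as pseudogenes. The rule found 85 of 54532 genes, carrying 84 distinct symbols because Atp5o has 2 entries. Complex I had 36 members, complex II 4, complex III 8, complex IV 19 and complex V 18, with Ndufa4 and Ndufa4l2 counted in complex IV. The rule uses names and no measured value.

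Complexes I and II take electrons from NADH and succinate, complex III passes them to cytochrome c, and complex IV hands them to oxygen. Protons pumped on the way drive complex V, the ATP synthase. Most subunits are encoded in the nucleus and imported, while a few core subunits are made inside the mitochondrion from its own genome. pDCs are known for secreting type I interferon after Toll-like receptors meet viral nucleic acid, and changes of mitochondrial metabolism have been described in activated dendritic cells.

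Bone marrow came from C57BL/6 wild-type mice. Its cells were cultured for 7 days with Flt3 ligand at 80 ng/mL, and pDCs were then enriched on beads through B220 to a routine purity of 80%. Imiquimod, an agonist of the RNA sensor TLR7, was given at 2.5 µg/mL. The vehicle is named LAL, Limulus amebocyte lysate, and whether it was the lysate or water tested with it is not stated. RNA depleted of rRNA was read as directional pairs of 75 nt. The 6 groups of 3 libraries were imiquimod at 6 h, imiquimod at 16 h, vehicle at 6 h, vehicle at 16 h, vehicle at 0 h and untreated cells at 0 h, all wild type. Whether the 3 libraries of each group stem from different cultures is not stated, so the p-values rest on a spread that may be technical.

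Library totals ran from 10609741 to 13447018 counts, and OXPHOS genes took between 0.329% and 0.455% of them. Levels are given as CPM, counts divided by the library total of genes passing a low-count filter, scaled by TMM, the trimmed mean of M-values. Ribosomal RNA took 11.8% to 13.2% of counts with imiquimod at 6 and 16 h and 15.5% to 17.02% with the vehicle at those times. All 8 pDC markers examined were detected in every group. Their summed level was 4299 to 4378 CPM with imiquimod and 8774 to 8873 CPM with the vehicle at 16 h. Markers of other cells also moved with the treatment. At 16 h, 5 of 6 conventional dendritic cell markers had counts with imiquimod and all 6 with the vehicle, and they summed to 365 to 385 CPM with imiquimod and 611 to 648 CPM with the vehicle. The 5 monocyte markers summed to 41.0 to 49.1 CPM with imiquimod and 292 to 303 CPM with the vehicle. The 5 B cell markers summed to 183 to 195 CPM with imiquimod and 104 to 130 CPM with the vehicle. At 6 h the conventional dendritic cell list summed to 344 to 356 CPM with imiquimod and 584 to 613 CPM with the vehicle, the monocyte list to 98.2 to 98.8 CPM with imiquimod and 294 to 345 CPM with the vehicle, and the B cell list to 163 to 176 CPM with imiquimod and 96.7 to 108 CPM with the vehicle. The B cell sum was carried by Pax5, with 138, 133 and 128 CPM with imiquimod and 23.4, 19.3 and 21.2 CPM with the vehicle at 16 h, and 104.5, 114 and 117 CPM with imiquimod against 19.8, 18.7 and 18.1 CPM with the vehicle at 6 h. The B cell markers Ms4a1, Cd79a and Cd79b had lower levels in every imiquimod library than in every vehicle library at both times. The other lists were not uniform either. Ly6d (pDC), Zbtb46 (conventional dendritic cell), and Cd14 and Fcgr1 (monocyte) were higher with imiquimod at both times. Their imiquimod libraries lay above all vehicle libraries of the same time. Markers of neutrophils and mast cells, T and NK cells and erythroid cells summed to at most 1.59 CPM in any library. The part of these cells and of the rRNA share in the results on OXPHOS genes was not tested. In bulk RNA, fewer cells of a type and less RNA per cell cannot be told apart.

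Of the 85 members, 78 passed the filter on low counts and were tested among 14876 genes. The 7 others were the second Atp5o entry, Cox4i2, Cox7a1, Ndufa4l2, Cox7b2, Cox8b and Cox8c. Cox7b2, Cox8b, Cox8c and the second Atp5o entry had 0 counts in all 18 libraries, which allows a level of up to 0.0140 CPM (3 counts over all libraries, counting error only). Cox4i2 had 2 counts, Ndufa4l2 had 1 and Cox7a1 had 45. A gene is called higher or lower when its Benjamini-Hochberg adjusted p in edgeR's quasi-likelihood test, over all genes tested, is under 0.05. Errors beside log2 fold changes are standard errors (SE), and errors beside means are SDs over 3 libraries. The share of each member's 75-nt windows also found in another gene's transcripts was computed from GENCODE M21. It was 0 for 55 members and over 20% for 2, Atp5g2 and the second Atp5o entry. Values of Atp5g2 are therefore uncertain.

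Promoter windows are shown first because OXPHOS genes are known for recognition words of the factors NRF1, GABP (of the ETS family) and YY1 near their starts. RefSeq (GRCm38.p6) gave a window of 250 bases before to 50 after the start for 66 of the 78 tested members. The words searched on both strands were GCATGCGC for NRF1, CCGGAAG for the ETS family and AAGATGGC for YY1. In the sequence GCGCATGCGC the NRF1 word overlaps itself on the opposite strand. NRF1's word stood in 10 of the 66 member windows (15.2%), against 2.81% of 27025 genes with a window. The ETS word stood in 15 member windows (22.7%), against 9.12% of all genes, and the YY1 word in 9 (13.6%), against 2.88% of all genes. At least 1 of the 3 words stood in 29 member windows (43.9%), against 13.8% of all genes. The 27025 genes include ones not tested here, and the shares among tested genes alone were not computed. A match describes letters and is not a bound site.

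Below are the 90 bases before the start of 7 members, picked with their values known so that genes higher and lower at 16 h both appear. Each reads 5′ to 3′ on the gene's strand, and capitals mark an NRF1 or ETS word lying wholly within these bases. Uqcr11 also has an NRF1 word that begins at -4 and runs past the start, and Sdhb has an ETS word after the start. The windows are Sdhb at chr4:140961181-140961270 on the plus strand, Sdhd at chr9:50603850-50603939 on the minus strand, Ndufa11 at chr17:56717672-56717761 on the plus strand and Uqcr11 at chr10:80406822-80406911 on the minus strand. The others, on the minus strand, are Ndufa6 at chr15:82354292-82354381, Uqcrh at chr4:116075071-116075160 and Cox7a2l at chr17:83514334-83514423.
Sdhb: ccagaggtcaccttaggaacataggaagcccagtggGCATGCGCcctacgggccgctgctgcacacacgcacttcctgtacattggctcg
Sdhd: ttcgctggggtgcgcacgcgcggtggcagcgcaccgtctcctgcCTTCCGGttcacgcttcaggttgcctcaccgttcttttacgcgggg
Ndufa11: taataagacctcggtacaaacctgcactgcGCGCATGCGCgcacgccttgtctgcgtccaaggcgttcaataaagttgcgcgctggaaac
Uqcr11: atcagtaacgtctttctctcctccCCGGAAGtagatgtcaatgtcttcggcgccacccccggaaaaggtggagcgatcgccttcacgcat
Ndufa6: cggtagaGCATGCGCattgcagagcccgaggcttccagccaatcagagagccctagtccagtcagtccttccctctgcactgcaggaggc
Uqcrh: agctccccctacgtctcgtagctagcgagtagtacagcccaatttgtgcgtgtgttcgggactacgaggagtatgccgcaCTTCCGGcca
Cox7a2l: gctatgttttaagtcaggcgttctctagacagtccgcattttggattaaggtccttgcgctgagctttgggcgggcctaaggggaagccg
Sdhb, Sdhd, Ndufa11 and Uqcr11 were higher with imiquimod at 16 h, with log2 fold changes of 0.60, 0.39, 0.43 and 0.32. Ndufa6, with an NRF1 word, and Uqcrh, with an ETS word, were lower, at -0.79 and -0.21. Cox7a2l, the most reduced tested member at 16 h (-1.53), has none of the 3 words in its window. That window lies inside the GENCODE span of Cox7a2l, which begins at 83517330 on the minus strand. A start further upstream was not examined. Among windows of members higher at 16 h, 7 of 48 held the NRF1 word, against 1 of 7 for members lower and 2 of 11 for members not called. The ETS word stood in 11 of those 48, 1 of those 7 and 3 of those 11 windows, and the YY1 word in 8, 0 and 1 of them. With 7 windows of members lower at 16 h, no difference between these shares was tested.

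The comparison of imiquimod with vehicle at the same time asks how these genes differed with imiquimod. The 6 groups hold no cells lacking TLR7 and no other TLR7 agonist, so the part of TLR7 was not tested. At 16 h, 58 of the 78 tested members were higher with imiquimod, 7 were lower and 13 were not called. Of all genes tested, 77.2% were called, 39.1% higher and 38.1% lower. The median log2 fold change was 0.45 over the members and -0.0033 over all genes. The members' changes lay closer together than those of all genes, with a span from the 25th to the 75th percentile of 0.55 against 1.29. Summed over members, the libraries held 4471, 4337 and 4423 CPM with imiquimod and 3221, 3269 and 3212 CPM with the vehicle. Every imiquimod library at 16 h was above every vehicle library.

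At 6 h the members were divided. With imiquimod 34 were higher, 23 lower and 21 not called, against 76.9% of all genes called, 37.7% higher and 39.2% lower. The median log2 fold change was 0.11 over the members and -0.037 over all genes. This split rests on the scaling: with library totals in place of TMM, 6 members were higher and 44 lower, and the median was -0.24. The same change of scaling gave 3706 of 14876 genes higher and 8222 lower at 6 h and moved their median to -0.39. At 16 h library totals left the members' split at 58 higher and 7 lower. Summed over members at 6 h, the libraries held 3996, 4055 and 4079 CPM with imiquimod and 3421, 3802 and 3696 CPM with the vehicle. Every imiquimod library was above every vehicle library under TMM. As a share of the library total the order was the opposite, with 0.334%, 0.333% and 0.333% with imiquimod and 0.364%, 0.398% and 0.386% with the vehicle. Vehicle replicate 1 was the lowest of the vehicle libraries, and without it the median log2 fold change was 0.056. Atp5b and Atp5a1 weigh most in the sum over members. At 6 h Atp5b alone had 661, 669 and 670 CPM with imiquimod and 379, 441 and 422 CPM with the vehicle. The sum without these genes was not computed. Complexes III, IV and V each summed higher with imiquimod at 6 h without overlap under TMM. In complex II the groups overlapped. Complex I was lower without overlap, at 862 to 869 CPM with imiquimod and 900 to 989 CPM with the vehicle.

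**Figure D1:**
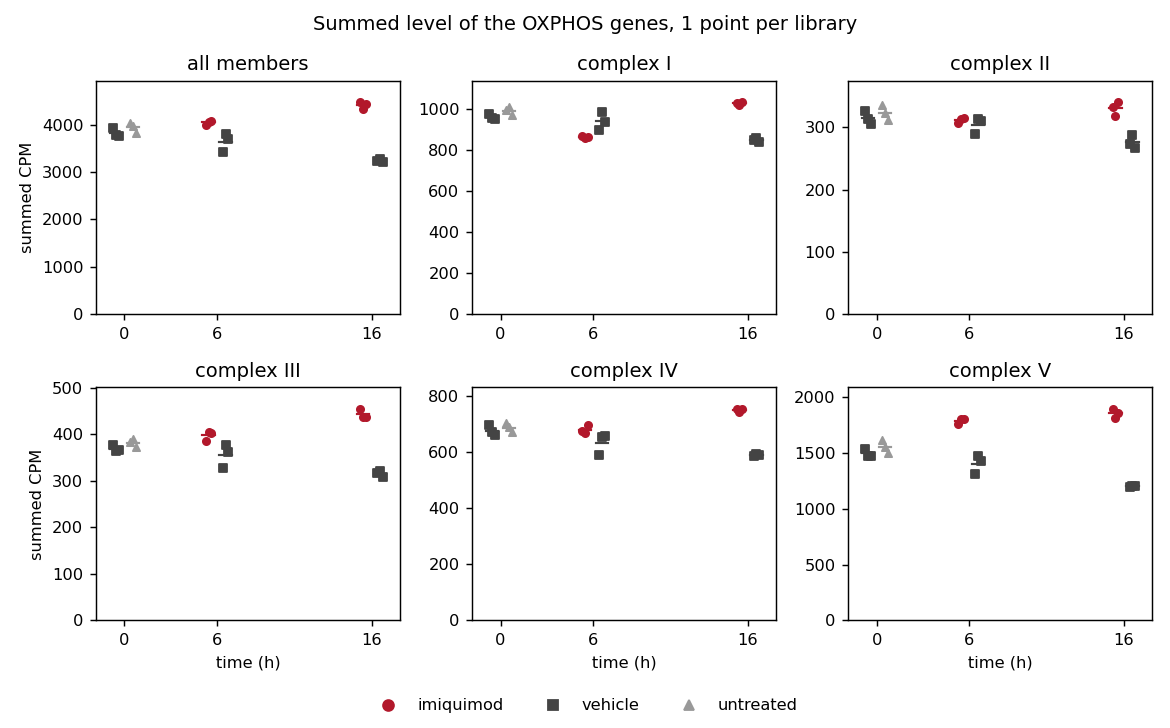
Summed TMM-scaled CPM of the OXPHOS genes (vertical axis, from 0) against time in h, for all members and for each complex. Points are libraries and short lines are means of 3: at 16 h the imiquimod libraries stand at 4337 to 4471 CPM over all members and the vehicle libraries at 3212 to 3269.

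By complex, the members of the 16 h comparison leaned the same way throughout. Higher with imiquimod were 26 of 36 genes of complex I, 3 of 4 of complex II, 7 of 8 of complex III, 11 of 13 tested of complex IV and 11 of 17 tested of complex V. Lower were 5 of complex I, 1 of complex III and 1 of complex IV. The highest median was that of complex IV (0.72), followed by 0.46 for complex III, 0.45 for complex V, 0.42 for complex II and 0.41 for complex I. At 6 h complex I had 10 genes higher and 16 lower of 36, beside 37.7% of all genes higher and 39.2% lower, and a median of -0.19. Complex IV had 10 higher and 2 lower of 13 at 6 h and a median of 0.32. With library totals the 6 h counts were 1 higher and 24 lower for complex I and 2 higher and 4 lower for complex IV, with medians of -0.54 for complex I and -0.031 for complex IV. Of all 14876 genes, 3706 were then higher and 8222 lower, with a median of -0.39.

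**Figure D2:**
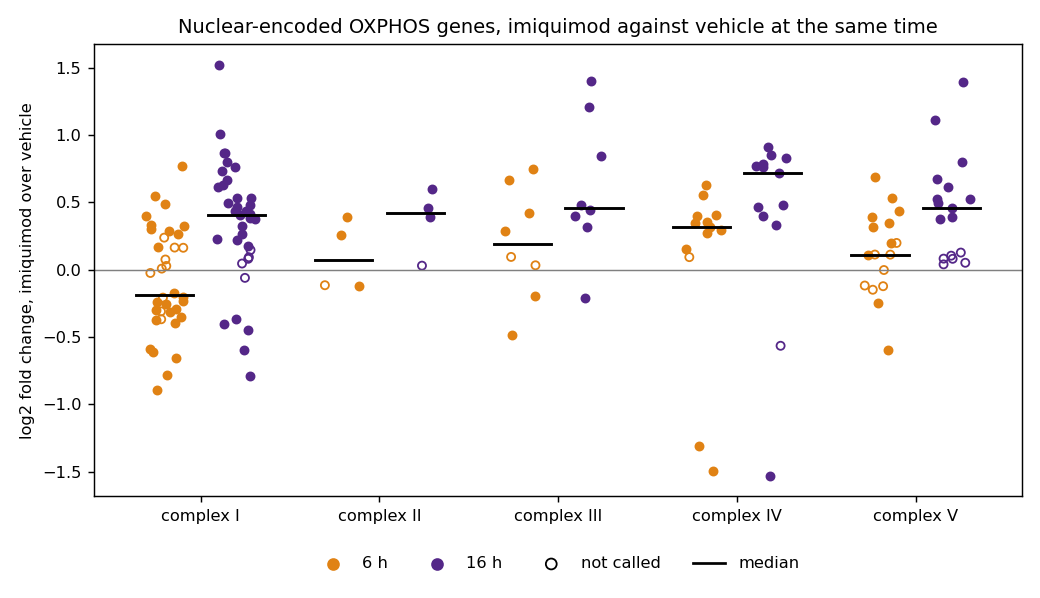
Log2 fold change of imiquimod over vehicle (vertical axis) for the 78 tested members, by complex, at 6 h and 16 h under TMM scaling. Filled points passed an adjusted p of 0.05, open points did not, and bars are medians: complex I has a median of -0.19 at 6 h (-0.54 with library totals) and 0.41 at 16 h. With library totals the median of all genes at 6 h was -0.39.

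In complex I, the gene with the largest rise was Ndufa12, an accessory subunit of the matrix arm (chr10:94198720-94221443 in mm10, as are the gene positions that follow). At 16 h it had 26.5, 28.5 and 29.4 CPM with imiquimod and 12.1, 9.13 and 8.18 CPM with the vehicle. At 6 h it had 15.8, 17.1 and 17.2 CPM with imiquimod and 10.9, 9.02 and 9.44 CPM with the vehicle. The groups did not overlap at either time, and the log2 fold change was 1.52 ± 0.10 (adjusted p = 3.16e-24) at 16 h and 0.77 ± 0.11 (adjusted p = 2.45e-09) at 6 h. A processed pseudogene shares 14.6% of its windows. Ndufb6, an accessory subunit of the membrane arm, had 25.7, 21.9 and 23.8 CPM with imiquimod and 12.7, 11.8 and 11.1 CPM with the vehicle at 16 h. Its 6 h libraries held 19.4, 19.2 and 20.2 CPM with imiquimod and 10.6, 16.5 and 13.1 CPM with the vehicle. Ndufb6 was thus higher without overlap, by 1.00 ± 0.10 at 16 h and 0.55 ± 0.10 at 6 h, the 6 h call being lost with library totals.

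The core subunits of complex I described here moved less. Ndufv1, the subunit that binds flavin and takes up NADH, had 44.4, 45.7 and 44.0 CPM with imiquimod and 33.6, 35.1 and 34.6 CPM with the vehicle at 16 h. At 6 h it had 41.6, 36.8 and 33.8 CPM with imiquimod and 38.4, 52.1 and 46.7 CPM with the vehicle. It was thus higher without overlap at 16 h (0.38 ± 0.08, adjusted p = 1.77e-05) and lower with overlapping groups at 6 h (-0.29 ± 0.08, adjusted p = 0.000623). Ndufs1, an iron-sulfur subunit of the same arm, had 81.0, 77.5 and 78.5 CPM with imiquimod and 67.3, 69.1 and 66.1 CPM with the vehicle at 16 h and 68.5, 66.1 and 68.7 CPM with imiquimod against 77.2, 78.9 and 73.5 CPM with the vehicle at 6 h. It was higher by 0.23 ± 0.05 at 16 h and lower at 6 h (-0.18 ± 0.05), without overlap at either time.

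A few complex I genes were lower at both times. Ndufa6, an accessory subunit of the matrix arm (chr15:82350140-82354322), had 16.5, 19.2 and 19.6 CPM with imiquimod and 31.4, 30.2 and 33.7 CPM with the vehicle at 16 h. The 6 h libraries held 16.9, 20.04 and 17.97 CPM with imiquimod and 33.9, 30.5 and 29.9 CPM with the vehicle. Every imiquimod library lay below every vehicle library, and the log2 fold change was -0.79 ± 0.08 (adjusted p = 3.01e-15) at 16 h and -0.78 ± 0.08 (adjusted p = 2.29e-14) at 6 h. Ndufb11, an accessory subunit of the membrane arm, had 28.0, 26.9 and 27.1 CPM with imiquimod and 41.0, 40.2 and 43.0 CPM with the vehicle at 16 h and 25.6, 23.5 and 25.3 CPM with imiquimod against 43.4, 48.3 and 46.6 CPM with the vehicle at 6 h. The groups stood apart at both times, and Ndufb11 fell by 0.60 ± 0.06 at 16 h and by 0.89 ± 0.07 at 6 h on the log2 scale.

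Complex II, succinate dehydrogenase, joins the tricarboxylic acid cycle to the respiratory chain. Its iron-sulfur subunit Sdhb had 76.6, 71.5 and 83.6 CPM with imiquimod and 50.2, 53.7 and 49.0 CPM with the vehicle at 16 h, without overlap (0.60 ± 0.06, adjusted p = 5.44e-11). The membrane anchor Sdhc had 41.9, 47.1 and 47.9 CPM with imiquimod and 32.7, 33.3 and 33.3 CPM with the vehicle, and the anchor Sdhd had 55.6, 55.9 and 52.8 CPM with imiquimod and 44.6, 41.6 and 39.6 CPM with the vehicle. Both were higher at 16 h without overlap, Sdhc by 0.46 ± 0.06 and Sdhd by 0.39 ± 0.06. Sdha, the flavoprotein that oxidises succinate, had 159, 145 and 156 CPM with imiquimod and 146, 160 and 145 CPM with the vehicle, which overlap, and was not called (0.03 ± 0.04, adjusted p = 0.510). At 6 h Sdhb had 70.6, 71.2 and 71.7 CPM with imiquimod and 53.2, 67.4 and 58.3 CPM with the vehicle, Sdhc had 52.2, 54.8 and 51.6 CPM with imiquimod and 38.8, 42.3 and 40.1 CPM with the vehicle, and Sdha had 144, 146 and 146 CPM with imiquimod and 152, 158 and 164 CPM with the vehicle. Sdhb was then higher under TMM (0.25 ± 0.06) and at -0.10 with library totals. Sdhc was higher (0.39 ± 0.06), a call lost with library totals, and Sdha was lower (-0.12 ± 0.04), a call lost in DESeq2. Sdhd had 40.7, 42.1 and 45.0 CPM with imiquimod and 45.5, 45.4 and 47.7 CPM with the vehicle and was not called at 6 h (-0.12 ± 0.06).

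Among the members of complex III, the ubiquinol-cytochrome c reductase, the largest rises were those of 3 small subunits. Cytochrome c1 (Cyc1), a subunit of this complex whose name lies outside the rule, is counted below among the electron carriers. Cyc1 had 56.4, 57.5 and 57.4 CPM with imiquimod and 28.8, 30.4 and 26.9 CPM with the vehicle at 16 h. Uqcrq (chr11:53427922-53430831) had 41.7, 38.2 and 40.0 CPM with imiquimod and 17.1, 14.4 and 14.01 CPM with the vehicle at 16 h. In the 6 h libraries it had 27.4, 30.4 and 32.2 CPM with imiquimod and 18.4, 19.5 and 19.0 CPM with the vehicle. All imiquimod libraries were above all vehicle libraries, at 1.40 ± 0.08 (adjusted p = 3.13e-28) at 16 h and 0.66 ± 0.08 (adjusted p = 6.72e-12) at 6 h. Uqcr10 had 33.3, 32.5 and 33.2 CPM with imiquimod and 13.1, 15.2 and 14.4 CPM with the vehicle at 16 h and 24.0, 24.5 and 25.5 CPM with imiquimod against 14.4, 21.7 and 19.4 CPM with the vehicle at 6 h. It was higher by 1.21 ± 0.09 at 16 h and by 0.42 ± 0.09 at 6 h, the 6 h call being lost with library totals. Uqcrb had 42.0, 39.8 and 37.8 CPM with imiquimod and 21.3, 22.6 and 22.9 CPM with the vehicle at 16 h and 35.5, 41.2 and 35.9 CPM with imiquimod against 23.5, 22.9 and 20.5 CPM with the vehicle at 6 h. It was higher by 0.84 ± 0.07 at 16 h and by 0.75 ± 0.07 at 6 h, and shares 16.7% of its windows with other genes.

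The larger subunits among the complex III members changed less. The core protein Uqcrc1 had 98.3, 92.5 and 96.7 CPM with imiquimod and 67.7, 70.0 and 68.7 CPM with the vehicle at 16 h and 86.4, 88.8 and 92.3 CPM with imiquimod against 76.0, 88.2 and 86.4 CPM with the vehicle at 6 h. It was higher at 16 h (0.48 ± 0.05) and was not called at 6 h (0.09 ± 0.05, adjusted p = 0.0759). Uqcrfs1, the Rieske iron-sulfur protein that accepts electrons from ubiquinol, had 59.8, 56.3 and 59.6 CPM with imiquimod and 44.6, 46.6 and 42.3 CPM with the vehicle at 16 h and 67.1, 70.8 and 68.0 CPM with imiquimod against 49.7, 62.2 and 57.0 CPM with the vehicle at 6 h. It was higher at 16 h (0.40 ± 0.06), and at 6 h it was higher under TMM (0.28 ± 0.06) and at -0.065 with library totals. Uqcrh, the hinge protein that assists the contact with cytochrome c, had 47.4, 46.4 and 46.9 CPM with imiquimod and 57.1, 53.1 and 52.6 CPM with the vehicle at 16 h and 46.8, 47.4 and 49.5 CPM with imiquimod against 47.5, 63.3 and 53.6 CPM with the vehicle at 6 h. It was lower at 16 h (-0.21 ± 0.06) and at 6 h (-0.20 ± 0.06), where the groups overlapped and the call was lost without vehicle replicate 2. Uqcr11, a small subunit, had 14.7, 14.5 and 12.4 CPM with imiquimod and 10.3, 12.1 and 11.1 CPM with the vehicle at 16 h. Its 6 h values were 8.63, 7.94 and 10.8 CPM with imiquimod and 11.6, 13.03 and 13.7 CPM with the vehicle. It therefore changed side, at 0.32 ± 0.11 (adjusted p = 0.00597) at 16 h and -0.48 ± 0.12 (adjusted p = 0.000137) at 6 h.

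In complex IV, cytochrome c oxidase, the gene with the largest change was Cox7a2l (chr17:83501918-83517330), a relative of Cox7a linked to the joining of complexes III and IV into supercomplexes. Whether its protein does so in these C57BL/6 cells was not tested. Cox7a2l had 41.7, 38.5 and 41.8 CPM with imiquimod and 116, 119 and 117 CPM with the vehicle at 16 h. At 6 h it had 37.2, 38.1 and 42.0 CPM with imiquimod and 100.1, 113 and 118 CPM with the vehicle. No imiquimod library reached the level of any vehicle library, and the log2 fold change was -1.53 ± 0.06 (adjusted p = 1.19e-34) at 16 h and -1.50 ± 0.06 (adjusted p = 5.41e-33) at 6 h. A processed pseudogene shares 10.4% of its windows. Its relative Cox7a2, the common subunit of complex IV at that place, moved the other way, with 48.0, 47.7 and 49.6 CPM with imiquimod and 25.6, 25.5 and 26.3 CPM with the vehicle at 16 h (0.91 ± 0.06, adjusted p = 2.60e-22). At 6 h Cox7a2 had 38.5, 38.9 and 42.2 CPM with imiquimod and 25.5, 24.6 and 27.4 CPM with the vehicle, also without overlap (0.63 ± 0.07).

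Further structural subunits of complex IV were higher at 16 h, none with overlapping groups. Cox4i1, a regulatory subunit, had 180.3, 177 and 185 CPM with imiquimod and 141, 134 and 136 CPM with the vehicle, and Cox5a had 74.8, 64.3 and 66.8 CPM with imiquimod and 40.3, 41.0 and 39.9 CPM with the vehicle. Cox6b1 had 62.1, 64.1 and 64.7 CPM with imiquimod and 43.6, 47.2 and 45.9 CPM with the vehicle, and Cox7b had 57.7, 61.4 and 56.0 CPM with imiquimod and 36.1, 34.0 and 36.5 CPM with the vehicle. Cox7c had 54.8, 53.9 and 58.2 CPM with imiquimod and 30.6, 32.5 and 29.2 CPM with the vehicle, and Cox8a had 61.7, 64.0 and 60.9 CPM with imiquimod and 48.5, 51.1 and 48.9 CPM with the vehicle. On the log2 scale Cox7c rose by 0.85 ± 0.06, Cox5a by 0.77 ± 0.06, Cox7b by 0.72 ± 0.06, Cox6b1 by 0.48 ± 0.05, Cox4i1 by 0.40 ± 0.04 and Cox8a by 0.33 ± 0.05. About 19.6% of the windows of Cox7c are shared. At 6 h Cox7c (0.55 ± 0.06) and Cox5a (0.35 ± 0.06) were higher, Cox5a no longer so with library totals, and Cox8a was not called (0.09 ± 0.06). Under TMM Cox4i1 (0.16 ± 0.04), Cox6b1 (0.28 ± 0.05) and Cox7b (0.34 ± 0.06) were higher at 6 h, whereas with library totals they stood at -0.19, -0.075 and -0.0074. Cox4i1 had 169.5, 165 and 171 CPM with imiquimod and 136, 161 and 156 CPM with the vehicle at 6 h, and its call was lost without vehicle replicate 1, the lowest library.

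Several complex IV subunits have forms for particular tissues. Per kb of merged exons, Cox4i1 stood at 117 CPM per kb with imiquimod and 88.4 with the vehicle at 16 h, against 0.0339 with imiquimod and 0 with the vehicle for its relative Cox4i2. By the longest transcript Cox4i1 stood at 236 CPM per kb with imiquimod and 179 with the vehicle. By merged exons Cox6b1 stood at 89.9 CPM per kb with imiquimod and 64.4 with the vehicle, against 0.159 with imiquimod and 0.243 with the vehicle for the testis form Cox6b2. Cox7a2 stood at 51.3 CPM per kb with imiquimod and 27.3 with the vehicle, against 0.284 with imiquimod and 0.441 with the vehicle for the heart and muscle form Cox7a1. Cox6b2 had 94 counts over all libraries and was called lower at 6 h (-1.31 ± 0.61, adjusted p = 0.0447), where it had 0.196, 0.194 and 0.295 CPM with imiquimod and 0.622, 0.463 and 0.657 CPM with the vehicle. The call was lost with no filter, in DESeq2, and when any 1 library other than vehicle replicate 2 was left out. The heart and muscle form Cox6a2, which the rule leaves out, had 2.05, 2.40 and 2.16 CPM with imiquimod and 13.7, 12.8 and 13.8 CPM with the vehicle at 16 h. It was lower without overlap (-2.60 ± 0.15), while the member Cox6a1, its common relative, was higher (0.79 ± 0.12).

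Ndufa4, first placed in complex I and now known as a subunit of complex IV, had 41.2, 42.8 and 39.7 CPM with imiquimod and 22.1, 23.0 and 24.5 CPM with the vehicle at 16 h. The groups did not overlap, and the log2 fold change was 0.83 ± 0.07 (adjusted p = 5.59e-19). At 6 h Ndufa4 had 35.5, 34.2 and 36.2 CPM with imiquimod and 26.9, 30.6 and 28.9 CPM with the vehicle, with a log2 fold change of 0.29 ± 0.07 under TMM and -0.057 with library totals. AA467197, the mouse gene for the small protein Nmes1 that in human cells can replace Ndufa4, had 4.24, 4.43 and 5.13 CPM with imiquimod and 0.276, 0.0887 and 0.174 CPM with the vehicle at 16 h. Its vehicle libraries held 6 counts at 16 h and 2 at 6 h. The ratio of imiquimod to vehicle was 25.7 (95% exact interval 11.6 to 71.0) at 16 h and 139.8 (38.3 to 1162) at 6 h, with counting error only.

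In complex V the 2 genes with the largest rise at 16 h were Atp5g1 and Atp5b. Atp5b, the catalytic beta subunit (chr10:128083273-128090391), had 719, 689 and 698 CPM with imiquimod and 327, 326 and 324 CPM with the vehicle at 16 h. Its 6 h libraries had 661, 669 and 670.1 CPM with imiquimod and 379, 441 and 422 CPM with the vehicle. The groups did not overlap, at 1.11 ± 0.04 (adjusted p = 3.65e-41) at 16 h and 0.69 ± 0.04 (adjusted p = 5.17e-29) at 6 h. Per kb of merged exons Atp5b stood at 166 CPM per kb with imiquimod and 76.9 with the vehicle at 16 h, and per kb of the longest transcript at 366 with imiquimod and 170 with the vehicle. With imiquimod it was the highest member by either length. With the vehicle it stood below Atp5a1, Cox4i1, Cox8a and Cox7a2l by merged exons and below Cox4i1 alone by the longest transcript.

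The alpha subunit Atp5a1, which alternates with Atp5b in the head of the enzyme, had 433, 404 and 424 CPM with imiquimod and 318, 327 and 317 CPM with the vehicle at 16 h and 478, 493 and 486 CPM with imiquimod against 351, 403 and 392 CPM with the vehicle at 6 h. It was higher at 16 h by 0.39 ± 0.04, and at 6 h by 0.35 ± 0.04 under TMM but at -0.0043 with library totals. Atp5g1, one of several genes for the same mature ring subunit c, had 46.6, 46.6 and 47.2 CPM with imiquimod and 19.1, 18.5 and 15.8 CPM with the vehicle at 16 h. It was higher without overlap by 1.39 ± 0.07 (adjusted p = 2.91e-29) at 16 h. At 6 h Atp5g1 had 26.7, 32.4 and 26.9 CPM with imiquimod and 22.6, 21.4 and 21.6 CPM with the vehicle and was higher by 0.39 ± 0.08, a call lost with library totals. Of the other ring genes, Atp5g3 was higher by 0.80 ± 0.06 at 16 h, and Atp5g2, whose reads are shared, was not called (0.08 ± 0.09). Atp5c1, the gamma shaft, had 104, 97.0 and 102 CPM with imiquimod and 85.3, 97.3 and 98.8 CPM with the vehicle at 16 h and 67.5, 75.6 and 80.1 CPM with imiquimod against 92.1, 81.6 and 92.1 CPM with the vehicle at 6 h. It was not called at 16 h (0.10 ± 0.05) and was lower at 6 h (-0.25 ± 0.06). Atp5l and Atp5mpl, small subunits of the membrane part, were not called at either time. Atp5l had 34.1, 31.8 and 31.8 CPM with imiquimod and 33.4, 29.6 and 32.1 CPM with the vehicle at 16 h, and Atp5mpl had 28.6, 26.1 and 26.9 CPM with imiquimod and 26.9, 24.2 and 27.7 CPM with the vehicle, with log2 fold changes of 0.04 ± 0.07 for Atp5l and 0.05 ± 0.07 for Atp5mpl. Atpif1, the inhibitor of the enzyme, which lies outside the rule, had 32.6, 39.5 and 31.1 CPM with imiquimod and 19.7, 18 and 20.6 CPM with the vehicle at 16 h and was higher by 0.83 ± 0.08.

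**Figure D3:**
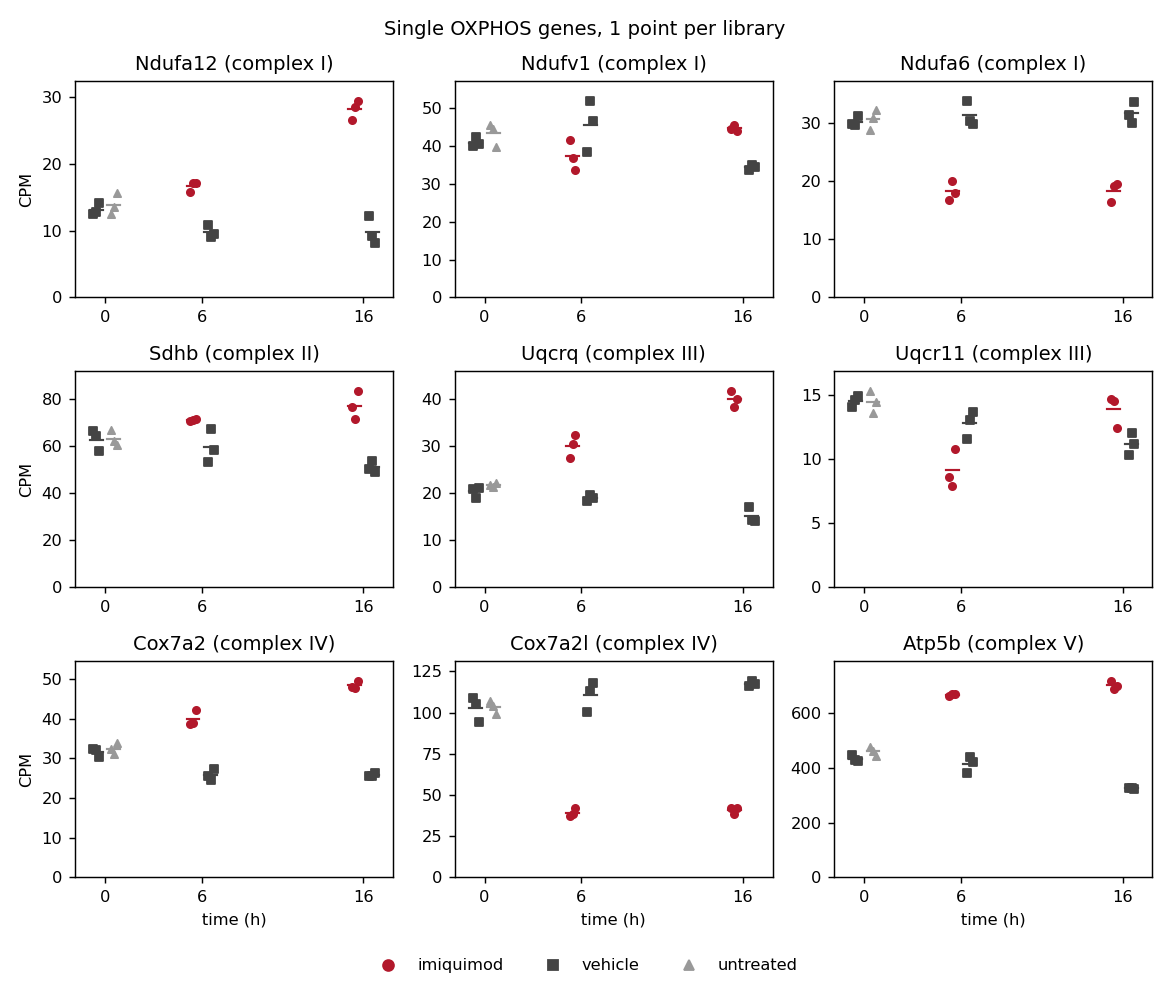
TMM-scaled CPM (vertical axis, from 0) against time in h for 9 OXPHOS genes; points are libraries and short lines are means of 3. Cox7a2l and Ndufa6 lie lower with imiquimod at both times, Ndufa12, Uqcrq, Cox7a2 and Atp5b lie higher, and Uqcr11 and Ndufv1 change side (Sdhb at 6 h stands at 0.25 under TMM and -0.10 with library totals).

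Set side by side under TMM, 34 members were higher at both times, 15 were not called at 6 h and higher at 16 h, and 9 were lower at 6 h and higher at 16 h. Those 9 were Ndufa10, Ndufa13, Ndufa8, Ndufc2, Ndufs1, Ndufs7, Ndufs8, Ndufv1 and Uqcr11, 8 of them in complex I. The 6 lower at both times were Cox7a2l, Ndufa6, Ndufb11, Ndufb5, Ndufv3 and Uqcrh. A further 8 were lower at 6 h and not called at 16 h, 1 (Ndufb2) was not called at 6 h and lower at 16 h, and 5 were not called at either time. The shares of all tested genes with these pairs of calls were not computed. Whether any of these counts exceeds the share of all genes is therefore not known. With library totals the 6 h calls of 24 members were lost and those of Ndufab1, Cox4i1, Atp5f1 and Atp5j2 turned from higher to lower.

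The change between the times was tested directly as the difference of the 2 effects, 16 h minus 6 h. It was called above 0 in 52 of 78 members and not called in 26, against 56.9% of all genes called, 28.5% above and 28.4% below. DESeq2 called 48 of the 52 in the same direction. With library totals 75 members were called above 0, against 6950 of 14876 genes above and 2259 below. The median difference was 0.35 over the members and -0.0063 over all genes, and with library totals 0.69 over the members and 0.33 over all genes. The largest among named genes was that of Atp5g1 (1.00 ± 0.11, adjusted p = 6.81e-13), and Cox7a2l (-0.03 ± 0.08) and Ndufa6 (-0.01 ± 0.11) were not called. Between the imiquimod groups themselves, 42 members were higher at 16 h than at 6 h and 4 were lower, against 63.7% of all genes called, 31.9% higher and 31.8% lower. The 4 were Ndufb2, Sdhc, Uqcrfs1 and Atp5a1, and with library totals 72 members were higher and 6 were not called. Of all 14876 genes, 7785 were higher and 2655 lower with library totals.

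**Figure D4:**
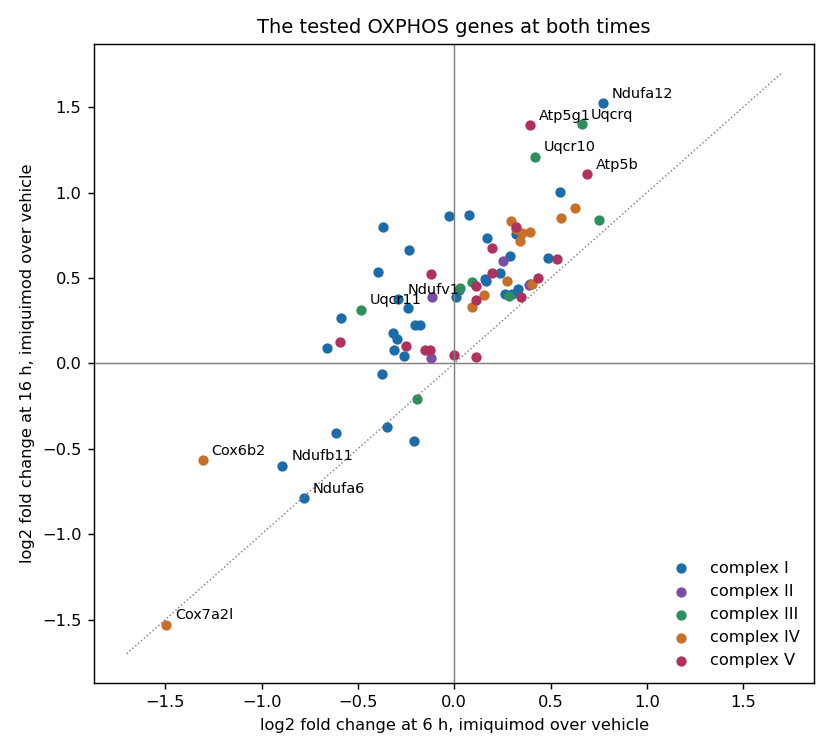
Log2 fold change of imiquimod over vehicle at 16 h (vertical axis) against that at 6 h (horizontal axis) under TMM, 1 point per tested member, coloured by complex. The dotted line marks equal changes: 52 members differ between the times with a positive difference, and Cox7a2l and Ndufa6 lie close to the line.

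The vehicle groups changed too. At 16 h, 52 members were lower than in the vehicle at 0 h and 3 were higher, against 58.4% of all genes called, 28.4% higher and 30.0% lower. The median was -0.25 over the members while that of all genes was at 0 to 3 decimals. The 3 were Atp5s, Cox7a2l and Uqcrh. Between vehicle at 6 h and at 0 h, 17 members were lower and 3 higher (52.9% of all genes called, 26.0% higher and 26.9% lower). Between vehicle at 16 h and at 6 h, 33 were lower and 45 not called (30.0% called, 14.6% higher and 15.4% lower). Without vehicle replicate 1 at 6 h, 10 members were higher in the vehicle at 6 h than at 0 h, and without vehicle replicate 2 at 6 h, 21 were lower in the vehicle at 16 h than at 6 h. Among called members, Cox6a1 (-0.63 ± 0.12), Atp5j2 (-0.62) and Ndufa4 (-0.60 ± 0.07) fell furthest at 16 h. Ndufa4 had 22.1, 23.0 and 24.5 CPM in the vehicle at 16 h, against 35.4, 33.1 and 37.3 CPM in the vehicle at 0 h, without overlap.

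Because the members fell in the vehicle over time, imiquimod was also set against the vehicle at 0 h. Against the vehicle at 0 h, a comparison added after the values were seen, imiquimod at 16 h had 42 members higher and 8 lower with a median of 0.16 (75.5% of all genes called, 38.8% higher and 36.8% lower). With library totals 41 of these 50 calls at 16 h were kept, 9 were lost and 5 others appeared. Ndufa12 (1.104 ± 0.09), Atp5g1 (1.02 ± 0.07) and Uqcrq (0.98 ± 0.07) remained higher, and Cox7a2l (-1.34 ± 0.06) and Ndufa6 (-0.72 ± 0.08) lower. At 6 h imiquimod had 26 members higher and 21 lower against that vehicle, with a median of 0.025 (75.4% called, 36.7% higher and 38.7% lower). With library totals 23 of these 47 calls at 6 h were kept, 7 turned to the other direction, 17 were lost and 27 others appeared. The vehicle at 0 h and untreated cells differed in 0 of 78 members and 0% of all genes in edgeR. At an unadjusted p under 0.05 edgeR gave 3 members and 708 of 14876 genes, and DESeq2 called 0.

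The mRNAs made in the mitochondrion differed in direction from most nuclear members at 16 h. Of 13, 7 had enough counts to test, and 4 of them were lower with imiquimod at 16 h and 3 not called. mt-Cytb, the only mitochondrially encoded subunit of complex III, had 264, 291 and 262 CPM with imiquimod and 476, 473 and 481 CPM with the vehicle (-0.81 ± 0.14, adjusted p = 0.000138). mt-Nd4 and mt-Nd5, proton-pumping subunits of complex I, stood at -0.83 ± 0.24 and -0.79 ± 0.20, and mt-Co1, the catalytic subunit of complex IV, at -0.31 ± 0.13 (adjusted p = 0.0492). The groups did not overlap in any of the 4 at 16 h. At 6 h 1 of the 7 was called, mt-Co1 (0.40 ± 0.13), with 3317, 3541 and 3743 CPM with imiquimod and 3259, 1992 and 2801 CPM with the vehicle, where vehicle replicate 2 was the lowest library. With library totals the call of mt-Co1 as higher was lost. Others, such as mt-Co2 and mt-Co3, were listed below 0.5 CPM in all imiquimod and vehicle libraries. Respiring cells use these genes as they do mt-Co1, so the listed values may reflect how reads were counted and are not read as levels, and the same limit may touch the tested mitochondrial genes.

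Genes that act with the complexes were counted by list. At 16 h the counts are to be read against 39.1% of all genes higher and 38.1% lower. At 6 h they are to be read against 37.7% higher and 39.2% lower under TMM. Counts at 6 h with library totals are to be read against 3706 of 14876 genes higher and 8222 lower. Of 48 tested assembly factors, 29 were higher, 7 lower and 12 not called at 16 h, and 15 were higher, 14 lower and 19 not called at 6 h (7 higher and 29 lower with library totals). Under TMM the 6 h counts of assembly factors lie below the shares of all genes in both directions. Sco1, a copper carrier for complex IV, had 62.1, 63.4 and 66.0 CPM with imiquimod and 10.5, 12.5 and 10.1 CPM with the vehicle at 16 h (2.53 ± 0.07). At 6 h Sco1 was higher by 2.98 ± 0.07. Uqcc2, an assembly factor of complex III, was higher by 1.72 ± 0.13 at 16 h, while Uqcc3 of the same complex (-0.76 ± 0.15) and Surf1 of complex IV (-0.72 ± 0.08) were lower.

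Among 20 electron carriers and side entries to the chain, 13 were higher and 5 lower at 16 h, and 6 were higher and 9 lower at 6 h (4 higher and 12 lower with library totals). Cycs, cytochrome c, had 34.7, 33.4 and 34.9 CPM with imiquimod and 9.83, 9.49 and 9.49 CPM with the vehicle at 16 h (1.84 ± 0.08). Pdss1, which makes the side chain of ubiquinone, was higher by 1.76 ± 0.12. The ubiquinone genes Coq8a (-1.94 ± 0.13) and Coq10a (-1.12 ± 0.10) were lower. Among 20 genes of the tricarboxylic acid cycle and pyruvate entry, 13 were higher and 4 lower at 16 h, and 7 were higher and 9 lower at 6 h (2 higher and 15 lower with library totals). Pcx, pyruvate carboxylase, and Idh3a, a subunit of isocitrate dehydrogenase, were higher at 16 h by 1.62 ± 0.23 and 1.101 ± 0.06. Mpc2, part of the pyruvate carrier (-0.53 ± 0.09), and Dlst, of the 2-oxoglutarate dehydrogenase (-0.39 ± 0.04), were lower.

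Of 7 carriers of nucleotides, phosphate and protons, 6 were higher and 1 lower at 16 h, and 2 were higher and 3 lower at 6 h (1 higher and 5 lower with library totals). The ADP/ATP carrier Slc25a5 rose by 0.88 ± 0.04 and the outer membrane channel Vdac2 by 0.71 ± 0.04 at 16 h. Ucp2, a carrier of the uncoupling protein family, had 409, 396 and 377 CPM with imiquimod and 523, 535 and 529 CPM with the vehicle (-0.42 ± 0.04). Slc25a4, the other ADP/ATP carrier measured, was called higher at 16 h by 0.12 ± 0.06, with overlapping groups.

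Of 15 regulators of mitochondrial gene expression, 9 were higher and 3 lower at 16 h, and 8 were higher and 5 lower at 6 h (4 higher and 9 lower with library totals). The PGC-1 family of coactivators was divided. Pprc1 had 120, 116 and 112 CPM with imiquimod and 39.3, 39.7 and 33.7 CPM with the vehicle at 16 h (1.63 ± 0.05). Ppargc1a was higher by 2.40 ± 0.33 at 2.85 ± 0.835 CPM with imiquimod and 0.535 ± 0.235 CPM with the vehicle (SD, n = 3 each), and Ppargc1b was lower (-1.26 ± 0.14). Tfb2m, a factor of mitochondrial transcription, was lower (-0.33 ± 0.10). Of the factors whose words were searched in the promoters, Nrf1 (0.05 ± 0.05) and Gabpa (0.0072 ± 0.05) were not called at 16 h, and Yy1 was lower (-0.17 ± 0.04). Gabpb1, the partner of Gabpa in GABP, had 53.7, 55.6 and 50.3 CPM with imiquimod and 39.7, 34.4 and 34.6 CPM with the vehicle, and was higher without overlap (0.56 ± 0.06). These 4 were named after their values were seen.

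Of 8 genes known to modify respiration in inflammation or low oxygen, 4 were higher and 3 lower at 16 h, and 5 were higher and 2 lower at 6 h (5 higher and 3 lower with library totals). At 16 h these counts lie near the shares of all genes. Acod1, the enzyme that makes itaconate, an inhibitor of succinate dehydrogenase, had 9.21, 9.16 and 8.34 CPM with imiquimod and 0.184, 0.266 and 0.261 CPM with the vehicle at 16 h (5.17 ± 0.30). Nos2, the inducible nitric oxide synthase, had 197 counts with imiquimod and 1 with the vehicle, a ratio of 168 (95% exact interval 29.8 to 6667). Pdk1, a kinase that restrains pyruvate dehydrogenase, was lower (-1.20 ± 0.08), as was Bnip3, which takes part in the removal of mitochondria (-0.96 ± 0.14).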

How the data were processed

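Total RNA of 18 pDC libraries had been depleted of rRNA and sequenced, per the labels' protocols. The authors deposited raw counts per gene, and STAR and mm10 are named in the submitters' processing notes. Which counting program, strand setting and annotation release they used is not given in the sources used here. Of the versioned identifiers, 97.8% are in GENCODE M21, which gave coordinates and lengths.

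Earlier results of these data were known when the members and lists were chosen, and the comparison of imiquimod with vehicle at 0 h was added after the values were seen. Quasi-likelihood fits in edgeR 4.0.16 under R 4.3.3 covered all 6 groups at once, with filterByExpr at a minimum count of 10, TMM scaling and Benjamini-Hochberg adjustment over 14876 genes at 0.05. The biological coefficient of variation was 3.08%, and totals of 10609741 to 13447018 counts set the precision. The SE is the log2 fold change divided by the root of F. Tests were checked on simulated counts with few changed genes, as many higher as lower. That setting cannot check the scaling on which the 6 h split rests.

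Named genes are, per complex, the 2 highest and 2 lowest changes at 16 h and the highest and lowest at 6 h among members with at least 10 CPM, a panel chosen by role, and per list the 2 highest and 2 lowest called at 16 h. Members outside it are named as parts of small counts. The single values of 1 member that the rule names and of 1 marker are not reported here. Alternatives were DESeq2 1.42.0 (test and size factors), library totals, TMM without rRNA and mitochondrial genes, no filter, 1 CPM in 3 libraries, a replicate block, only the groups compared, each library left out, and for levels per kb the longest transcript.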

Additional observations from a re-analysis of the deposited data

Results flagged for a closer look

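Among the OXPHOS genes described singly, these are listed because their response to imiquimod differed between 16 h and 6 h by a direct test of the difference of the effects (edgeR, adjusted p under 0.05 over all genes). Values are the difference in log2 fold change, 16 h minus 6 h, and every one is above 0. Differences of at least 0.50 were those of Atp5g1 (1.00), Uqcr11 (0.80), Uqcr10 (0.79), Ndufa12 (0.75), Uqcrq (0.74), Ndufv1 (0.67), Ndufa4 (0.54) and Sdhd (0.50). The other members of this kind were Ndufb6 (0.46), Atp5b (0.42), Cox5a (0.41), Ndufs1 (0.40), Uqcrc1 (0.38), Cox7b (0.37), Atp5c1 (0.35), Sdhb (0.34), Cox7c (0.30), Ndufb11 (0.30), Cox7a2 (0.28), Cox4i1 (0.24), Cox8a (0.24), Cox6b1 (0.21) and Sdha (0.15). In DESeq2 the calls for Sdha and Cox6b1 were lost, and that for Sdha was also lost with DESeq2 size factors and without vehicle replicate 1 or 3 at 16 h. The call for Cox6b1 was lost without imiquimod replicate 1 at 6 h or vehicle replicate 1 at 16 h, and that for Ndufb6 without vehicle replicate 2 at 6 h. No group has more than 3 libraries, so single libraries were not examined for outlying values.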

How the results depend on the processing

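At 16 h the 65 called OXPHOS genes kept their calls and directions under DESeq2 size factors, library totals, TMM without rRNA and mitochondrial genes, no filter, 1 CPM in 3 libraries, a replicate block, only the groups compared and DESeq2. With 1 library left out at most 2 calls were lost (among Ndufb2, Ndufs7 and Atp5k), and the median lay between 0.42 and 0.47. Against the vehicle at 0 h it was 0.16.

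At 6 h library totals kept 29 of 57 calls, turned 4 round (Ndufab1, Cox4i1, Atp5f1 and Atp5j2) and lost 24. They gave 6 members higher, 44 lower and a median of -0.24, against 3706 of 14876 genes higher, 8222 lower and -0.39. Library totals differ from TMM in dropping the composition factors, which ran from 0.817 to 1.07. They also sum the counts of all genes, while the TMM fit summed those of the tested genes alone. With library totals Sdhb stood at -0.10, Uqcrfs1 at -0.065, Cox4i1 at -0.19, Cox6b1 at -0.075, Cox7b at -0.0074, Ndufa4 at -0.057 and Atp5a1 at -0.0043. The median at 6 h was 0.14 under DESeq2 size factors and in DESeq2, 0.075 with no filter, 0.025 against the vehicle at 0 h, and between 0.056 and 0.13 with 1 library left out.

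The median difference of the effects was 0.32 under DESeq2 size factors and in DESeq2, 0.69 with library totals, 0.39 with no filter and 0.34 to 0.39 with 1 library left out. Between imiquimod at 16 h and 6 h, library totals gave 72 members higher, 0 lower and a median of 0.49. For all 14876 genes they gave 7785 higher, 2655 lower and a median of 0.31. No filter gave a median of 0.22 over the members, and leaving out 1 library gave 2 to 4 lower (2 without imiquimod 16 h replicate 1). Between vehicle at 6 h and 0 h, no filter gave 5 members higher, and leaving out 1 library gave 2 to 10 higher (10 without vehicle 6 h replicate 1) with medians of -0.10 to -0.041. With library totals the medians were -0.30 for vehicle at 16 h against 0 h and -0.20 against 6 h. Leaving out 1 library in the comparison of 16 h with 6 h gave 21 to 34 lower (21 without vehicle 6 h replicate 2), 0 to 1 higher and medians of -0.18 to -0.12. The cause of these shifts was not tested. Between vehicle at 0 h and untreated cells, 1 gene of all tested was called under DESeq2 size factors and with library totals, 5 with no filter, 4 with only those groups, and 0 to 7 with 1 library left out (7 without untreated replicate 3).

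The labels do not pair libraries. Deviations of libraries with equal numbers correlated at -0.0728 to 0.0398, so the numbers were not used. A replicate block kept all 57 calls at 6 h and 65 at 16 h, with medians of 0.11 and 0.45.

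Depth limits genes of few counts such as Cox6b2, Cox7a1 and AA467197. Counts carry no molecular identifiers, purity was 80%, and reads shared with copies cannot be divided here.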
